A study of Mus musculus with 4 samples.

Results

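The ERK pathway feedback regulators are 10 mouse genes that encode brakes or outputs of growth factor signalling: Dusp1, Dusp4, Dusp5, Dusp6, Spry1, Spry2, Spry4, Spred1, Etv4 and Etv5. They were chosen by name, and every gene probe whose transcript record maps to one of them was kept. This gave 13 of the 55681 probes on the array, for 10 of 36838 gene names. Spred1 has 3 probes, Etv4 has 2 and each of the other genes has 1.

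RNA was measured in NIH-3T3 cells, an established mouse embryonic fibroblast line, on 4 single-colour Agilent mouse gene expression arrays. The cells were grown to confluency in medium with 10% serum (fetal bovine in the labels, newborn calf in the study's methods) and either left untreated or given 20 µM of AR7, CA39 or CA77 for 24 h. AR7 was developed against retinoic acid receptor alpha and activates chaperone-mediated autophagy, the lysosomal breakdown of selected cytosolic proteins, and CA39 and CA77 were designed to share that action. Each condition was 1 array, so no difference here has a replicate check, no test was possible and no p-value is given.

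DMSO was the solvent of each compound and the control's treatment label is None, with nothing said of vehicle, so vehicle and compound cannot be told apart. All 4 arrays were on 1 slide, where the untreated array sat in row 1 and every treated array in row 2, and these too cannot be told apart. The CA77 array came from scan 2 and the others from scan 1. Between 52.2% and 69.7% of probes were detected on an array, meaning that over 50% of their spots lay well above background. Of 8 fibroblast markers, 7 were detected on every array and Pdgfrb was detected with CA39 only. Of 4 epithelial markers, Krt8 and Krt18 were detected on every array, Epcam with CA39 only and Cdh1 on none.

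In this pathway a growth factor binds a receptor tyrosine kinase, which activates Ras and then, through a kinase cascade, ERK. Active ERK drives transcription of its own inhibitors, so the RNA of these genes is commonly read as a record of recent ERK activity. The inhibitors act at separate steps. Dual-specificity phosphatases (Dusp genes) remove the activating phosphates from ERK or related kinases, whereas Sprouty and Spred proteins act upstream, between the receptor and that cascade. Etv4 and Etv5 are ETS family transcription factors of the PEA3 group and carry the signal to further genes.

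Promoter sequences are shown for the members with the contrasting patterns described below: Etv5, the member with the greatest distance from untreated, Dusp1, which lay on opposite sides of untreated with CA39 and CA77, and Spry2, whose readings lay close together. They come from RefSeq on build GRCm38.p6, run 5′ to 3′ from 250 bases before the transcript start to 50 after it, and carry in capitals the matches to the motifs named beneath them. Etv5 has 2 listed starts.
Etv5, first start, chr16:22439521-22439820, minus strand: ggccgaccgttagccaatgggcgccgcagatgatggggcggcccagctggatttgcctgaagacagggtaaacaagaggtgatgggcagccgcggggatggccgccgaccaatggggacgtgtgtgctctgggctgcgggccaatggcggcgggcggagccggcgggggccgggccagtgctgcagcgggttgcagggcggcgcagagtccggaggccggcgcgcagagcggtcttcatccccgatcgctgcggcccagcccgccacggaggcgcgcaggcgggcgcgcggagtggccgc
Etv5, second start, chr16:22438319-22438618, minus strand: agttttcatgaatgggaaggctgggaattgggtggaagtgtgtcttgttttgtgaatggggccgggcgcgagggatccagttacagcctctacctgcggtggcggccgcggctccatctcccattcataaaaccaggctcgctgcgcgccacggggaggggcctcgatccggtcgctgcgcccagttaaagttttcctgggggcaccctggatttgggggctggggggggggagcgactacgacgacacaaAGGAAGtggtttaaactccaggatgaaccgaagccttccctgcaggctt
Dusp1, chr17:26508423-26508722, minus strand: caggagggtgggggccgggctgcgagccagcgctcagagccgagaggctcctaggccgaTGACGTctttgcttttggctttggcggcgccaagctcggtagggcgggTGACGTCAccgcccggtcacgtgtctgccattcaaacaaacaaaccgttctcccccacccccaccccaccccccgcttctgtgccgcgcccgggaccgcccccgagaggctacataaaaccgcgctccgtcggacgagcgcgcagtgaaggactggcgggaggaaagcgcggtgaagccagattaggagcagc
Spry2, chr14:105896770-105897069, minus strand: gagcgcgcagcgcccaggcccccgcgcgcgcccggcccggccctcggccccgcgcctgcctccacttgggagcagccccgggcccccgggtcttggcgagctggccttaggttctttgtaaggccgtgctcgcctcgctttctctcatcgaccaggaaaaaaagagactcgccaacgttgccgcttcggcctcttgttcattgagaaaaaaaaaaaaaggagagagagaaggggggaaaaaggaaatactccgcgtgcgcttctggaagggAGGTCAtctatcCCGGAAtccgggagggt

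Of the 10 members, 7 had 8 promoters in the RefSeq table, while Dusp4, Etv4 and Spry4 were not among them. Motifs were sought on both strands, and no 2 kinds of match overlapped in the promoters printed. The ETS core CCGGAA, present in 14.9% of 32851 mouse promoters of this length, occurred in Spry2 alone among these 7 members. Spry2 was also the only one with AGGTCA, the hexamer bound by retinoic acid receptors, which 16.3% of promoters hold. The PEA3 motif AGGAAG, held by 35.4% of promoters, occurred at the second Etv5 start, in Dusp6 and in Dusp5. The cAMP response element TGACGT, held by 7.51%, had 3 matches in Dusp1, of which the last 2 are the strands of a single palindrome, and 1 match in Dusp5. Dusp5 also held 2 CArG boxes, the motif of serum response factor, which 1.63% of promoters hold. The AP-1 motif TGANTCA, held by 7.81%, was in none of the 8 promoters. These matches describe the letters only, and the array measured no binding.

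Levels below are log2 values after background correction and quantile normalization, and differences are log2 differences within 1 probe. The spread between spots served as the yardstick: 399 probes were each printed 10 times per array, and their spots gave a tolerance of 0.16 for a difference between 2 arrays. A difference beyond 2 tolerances (0.32) exceeded this spot error, which leaves out the variation between cultures. Thresholds of 1.5-fold and 2-fold were applied on top. The tolerance of 0.16 was used for every count, while near the level of Dusp1, Dusp6, Spred1 and Etv5 it was 0.14 and near Dusp5 0.25. By these values Dusp6 with CA39 would lie beyond 1 tolerance of untreated and Dusp5 with CA39 within 2. Dusp1 with CA39 and CA77, Spred1 with CA39 and Etv5 with CA77 would lie just beyond 2.

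Across the members, most differences from untreated were small. With AR7, 0 of the 8 measured members passed 2-fold, beside 3.06% of all 27855 genes measured in that comparison. With CA39, 1 of 8 passed (Etv5, higher), beside 5.29% of 27894 genes. With CA77, 0 of 8 passed, beside 3.22% of 28126 genes. More than 2 tolerances from untreated lay 3 members under AR7, 3 under CA39 and 2 under CA77, beside 18.0%, 29.9% and 22.8% of genes. Dusp5 is in each of these counts, as a bound under AR7 and CA39 that falls within 1 tolerance at a higher floor. The members' median difference was 0.07, -0.19 and 0.24 under AR7, CA39 and CA77, where all genes together had medians of -0.03, -0.02 and -0.04. Over 8 other ways of processing, the member medians ranged from 0.02 to 0.09, from -0.25 to -0.09 and from 0.18 to 0.24. Beyond 2 tolerances, 2 members were higher and 1 lower with AR7, where 6.62% and 11.4% of genes were. With CA39, 1 was higher and 2 were lower, where 12.8% and 17.2% of genes were. With CA77, 1 was higher and 1 lower, where 9.02% and 13.8% of genes were. All 3 comparisons use the same untreated array, so an error on that array would enter each of them.

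**Figure D1:**
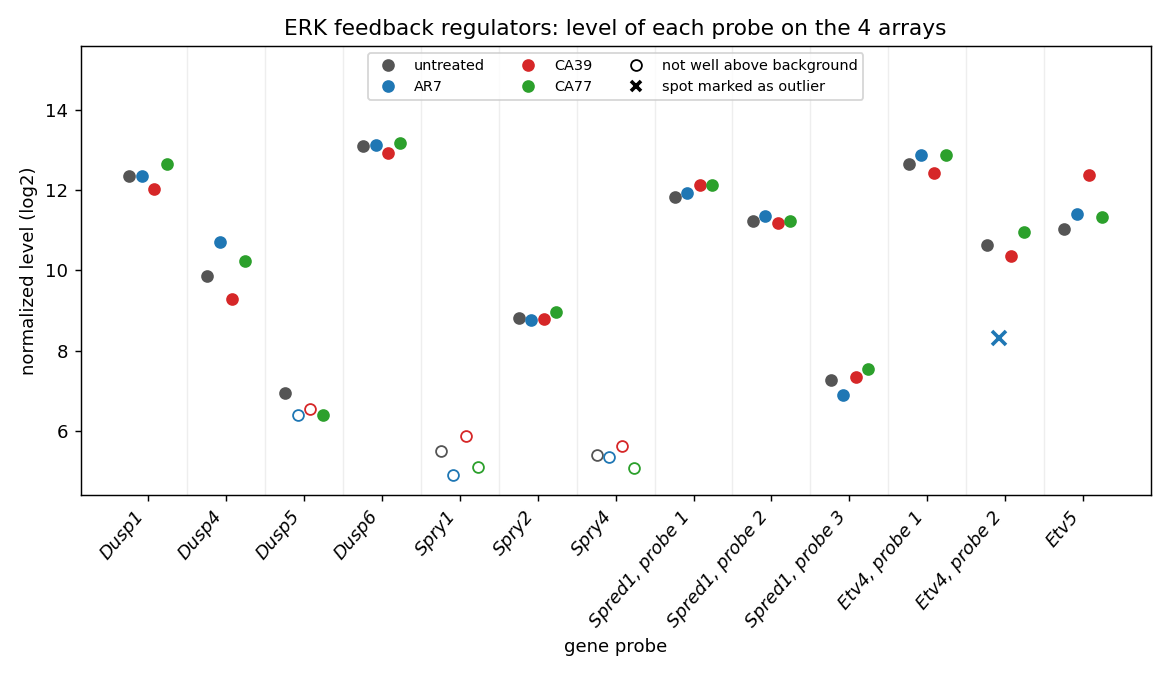
Normalized log2 level (vertical axis) of each of the 13 probes for the members on the untreated (grey), AR7 (blue), CA39 (red) and CA77 (green) arrays, 1 point per array. Open circles were not well above background and the cross is a spot the scanner software marked as an outlier. The CA39 point stands above the rest for Etv5 and below them for Dusp4 and Dusp1.

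Among the 4 phosphatases, Dusp4 passed 1.5-fold from untreated with AR7. Dusp4, a nuclear phosphatase that acts on ERK, JNK and p38, stood at 9.86 untreated and 10.24 with CA77, against 10.71 with AR7 and 9.29 with CA39. The order ran CA39, untreated, CA77, AR7, and every step of it was larger than 2 tolerances. AR7 was 0.85 above untreated (1.80-fold), the only member past 1.5-fold with that compound, beside 6.51% of genes. Among all genes, 3.76% differed at least this far with AR7. CA39 was 0.57 below untreated (-0.57) and CA77 was 0.38 above it. The spot signals before any correction, 960 untreated, 1798 with AR7, 694 with CA39 and 1115 with CA77, lay in the same order. The 13 spots next to the Dusp4 spot had a median AR7 difference of 0.18 and a largest, in either direction, of 1.21 in size. The part of this in the Dusp4 value was not tested.

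Dusp1, an immediate early gene whose nuclear product acts on p38 and JNK as well as ERK, read 12.35 untreated, 12.34 with AR7, 12.04 with CA39 and 12.64 with CA77. Untreated and AR7 could not be separated, with a difference of -0.01. CA39 lay 0.31 below (-0.31) and CA77 0.30 above untreated, each between 1 and 2 tolerances. Over 8 other ways of processing, the Dusp1 difference with CA39 ranged from -0.42 to -0.30. Dusp6, a cytoplasmic phosphatase selective for ERK and a widely used reporter of its activity, read 13.09 untreated, 13.13 with AR7, 12.94 with CA39 and 13.18 with CA77. Its differences of 0.04, -0.15 and 0.09 were all within 1 tolerance of untreated, although the CA39 value ranged from -0.26 to -0.15 over 8 other ways of processing. The CA39 reading lay between 1 and 2 tolerances below AR7 (-0.19) and CA77 (-0.24), and no other pair of arrays could be ordered.

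Dusp5, a nuclear phosphatase selective for ERK, was dim. It read 6.93 untreated and 6.39 with CA77, while its AR7 value of 6.38 and CA39 value of 6.55 were not well above background. The CA77 difference was -0.54, at a level where the tolerance was 0.25, and it ranged from -0.84 to -0.36 over 8 other ways of processing, passing 1.5-fold in 3 of them. With AR7 and CA39 the difference depended on how the dim spot was treated. It was -0.55 and -0.38 with that spot at its own value, and -0.11 and -0.06 when it was set to the 1st percentile of detected signal. No order of Dusp5 among the untreated, AR7 and CA39 arrays was detectable at this signal.

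Of the Sprouty genes, Spry2 alone was measurable. Spry2, an inhibitor of Ras to ERK signalling below receptor tyrosine kinases, read 8.81 untreated, 8.76 with AR7, 8.79 with CA39 and 8.97 with CA77. Its differences of -0.05, -0.02 and 0.16 were within 1 tolerance. Spry1 gave 5.50, 4.91, 5.88 and 5.11 on the untreated, AR7, CA39 and CA77 arrays, and Spry4, another Sprouty inhibitor, gave 5.40, 5.34, 5.62 and 5.08. Both stayed below the detection limit throughout, so these values have no order and no fold is given.

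Spred1, a membrane protein that brings the Ras inactivator neurofibromin to its target, was read by 3 probes. The brightest read 11.84 untreated, 11.93 with AR7, 12.14 with CA39 and 12.12 with CA77, or differences of 0.09, 0.30 and 0.28. The next read 11.22, 11.36, 11.19 and 11.24 in the same order, with differences of 0.14, -0.03 and 0.02. The dimmest read 7.28, 6.90, 7.33 and 7.54, with differences of -0.38, 0.05 and 0.26. The 3 probes thus disagreed in sign with AR7 and CA39, and all were above untreated with CA77 by less than 2 tolerances.

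The transcription factors parted under CA39. Etv5 read 11.03 untreated, 11.42 with AR7, 12.37 with CA39 and 11.34 with CA77. CA39 stood apart from all other arrays, 1.34 above untreated (2.54-fold), and 3.47% of genes differed at least this far. AR7 and CA77 were 0.39 and 0.31 above untreated and within 1 tolerance of each other. Before correction the spot signal was 2122 on the untreated array, against 2931.5 (AR7), 5612.5 (CA39) and 2367.5 (CA77). The 8 spots beside the Etv5 spot had a median CA39 difference of -0.34 and a largest, in either direction, of 1.11 in size, and the part of this in the Etv5 value was not tested. Over 8 other ways of processing, the CA39 difference ranged from 1.32 to 1.39.

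Etv4, its close relative, read 12.67 untreated, 12.88 with AR7, 12.44 with CA39 and 12.87 with CA77 on its brighter probe. The differences of 0.22, -0.23 and 0.20 each lay between 1 and 2 tolerances. The second Etv4 probe read 10.64 untreated, 10.37 with CA39 and 10.96 with CA77, or -0.28 and 0.32, with the same signs. Its AR7 spot was marked as an outlier and left out. Taken as it stood, that spot would have read 8.32, a difference of -2.32 where the brighter probe gave 0.22. With CA39, then, Etv4 and Etv5 lay on opposite sides of untreated, the former within 2 tolerances of it.

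**Figure D2:**
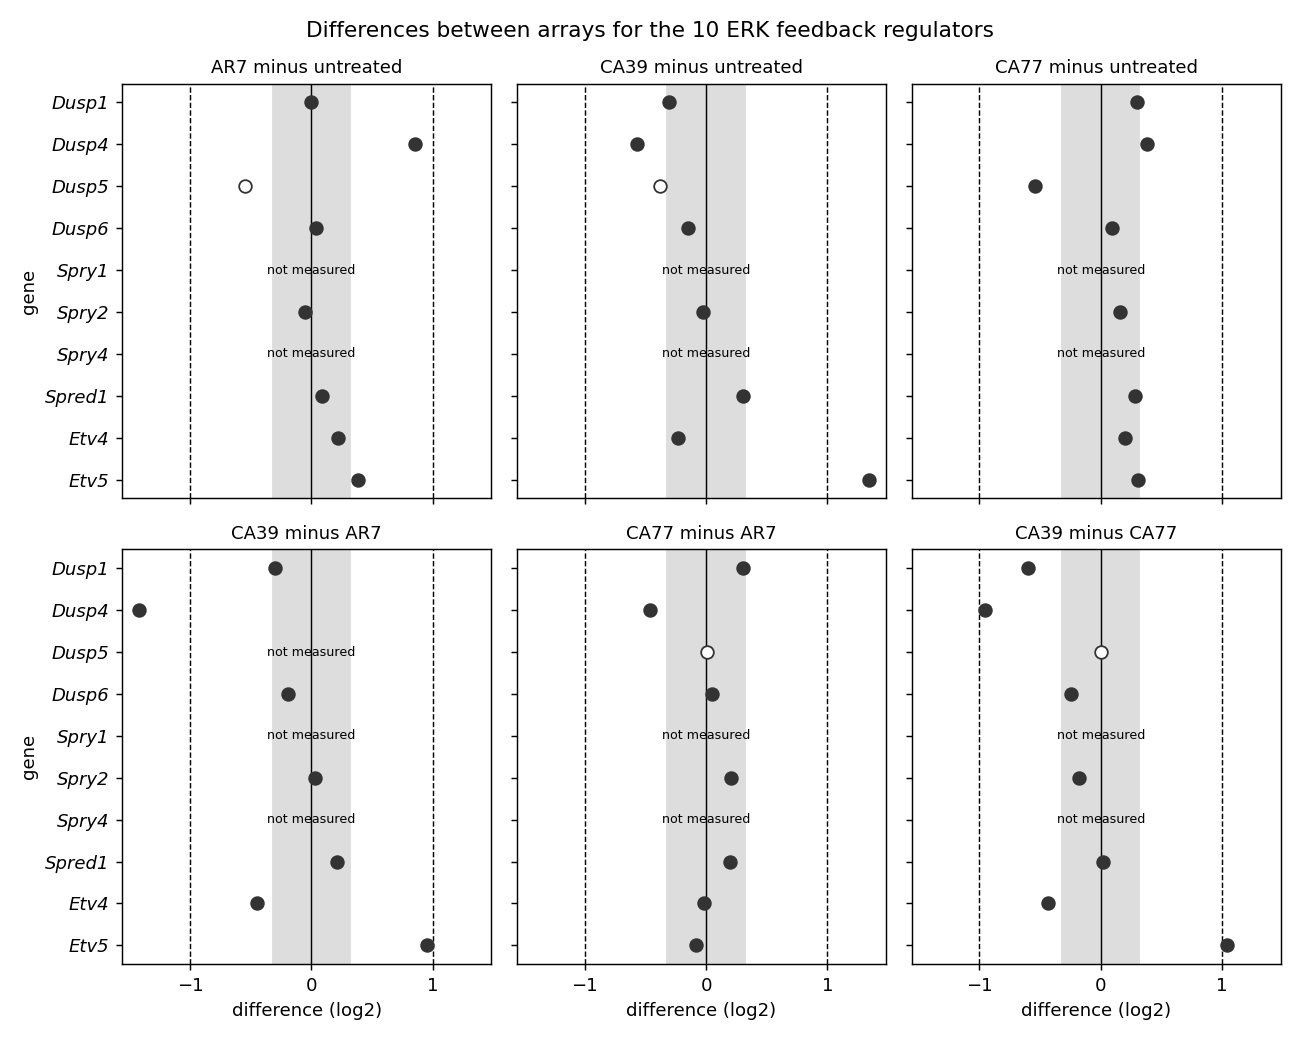
Log2 difference (horizontal axis) of each member between 2 arrays, 1 panel for each of 6 comparisons. The grey band spans 2 tolerances either side of 0, dashed lines mark 2-fold, and open circles are bounds; Etv5 with CA39 (1.34) is the only point past 2-fold from untreated.

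The position of each spot on its array was also examined. Genes read in the first 160 of the grid's rows were past 2-fold higher than untreated in 3.81% of cases with AR7, 5.48% with CA39 and 4.74% with CA77. Beyond row 160 the shares were 0.681%, 2.69% and 0.807%. The shares past 2-fold lower ran the other way, at 0.726%, 1.25% and 0.336% up to row 160 and 1.31%, 1.57% and 1.05% beyond it. Of the members, Dusp1, Dusp6 and Spred1 were read in those first rows, while the other 7, Etv5 and Dusp4 included, lay beyond them. In windows of 10 rows and 10 columns around each member spot, the median difference from untreated lay between -0.10 and 0.05 for every probe and compound. The median was -0.05 around Etv5 with CA39 and 0.03 around Dusp4 with AR7. Of the detected spots in these 2 windows, 1.88% and 4.31% were past 2-fold in either direction.

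The compounds were then set against each other at their shared dose and time, in 3 pairs and with no test, since each pair is 2 arrays. Between CA39 and AR7, 7 members could be measured and 1 passed 2-fold, beside 8.30% of genes, while 3 lay beyond 2 tolerances, beside 35.3%. The member past 2-fold was Dusp4, 1.42 lower with CA39 (-1.42, 2.68-fold), and 5.07% of genes differed at least this far. Etv5 lay on the other side, 0.96 higher with CA39, and Etv4 was lower by more than 2 tolerances (-0.45).

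Between CA39 and CA77, 1 of 8 members passed 2-fold, beside 7.48% of genes, while 4 lay beyond 2 tolerances, beside 31.3%. The member past 2-fold was Etv5, 1.04 higher with CA39 (2.05-fold), and 7.13% of genes differed at least this far. Dusp4 (-0.96) and Dusp1 (-0.60) were lower with CA39 by more than 1.5-fold, as were 6.51% of genes, although Dusp1 passed that threshold in only 7 of 8 other ways of processing, with a smallest difference of -0.55. Etv4 was lower by 0.43 on the log2 scale (-0.43). CA39 thus had the highest Etv5 and the lowest Dusp1, Dusp4 and Etv4 readings of the 4 arrays, each more than 1 tolerance from its neighbour.

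Fewer members separated AR7 from CA77. Of 8 members, 0 passed 2-fold, beside 4.31% of genes, and 1 lay beyond 2 tolerances, beside 15.9%. That member was Dusp4, which was lower with CA77 (-0.47). Dusp1 was 0.30 higher with CA77, and Dusp6, Etv4 and Etv5 differed by 0.05, -0.02 and -0.08, within 1 tolerance. A difference within the tolerance does not show that the compounds act alike.

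**Figure D3:**
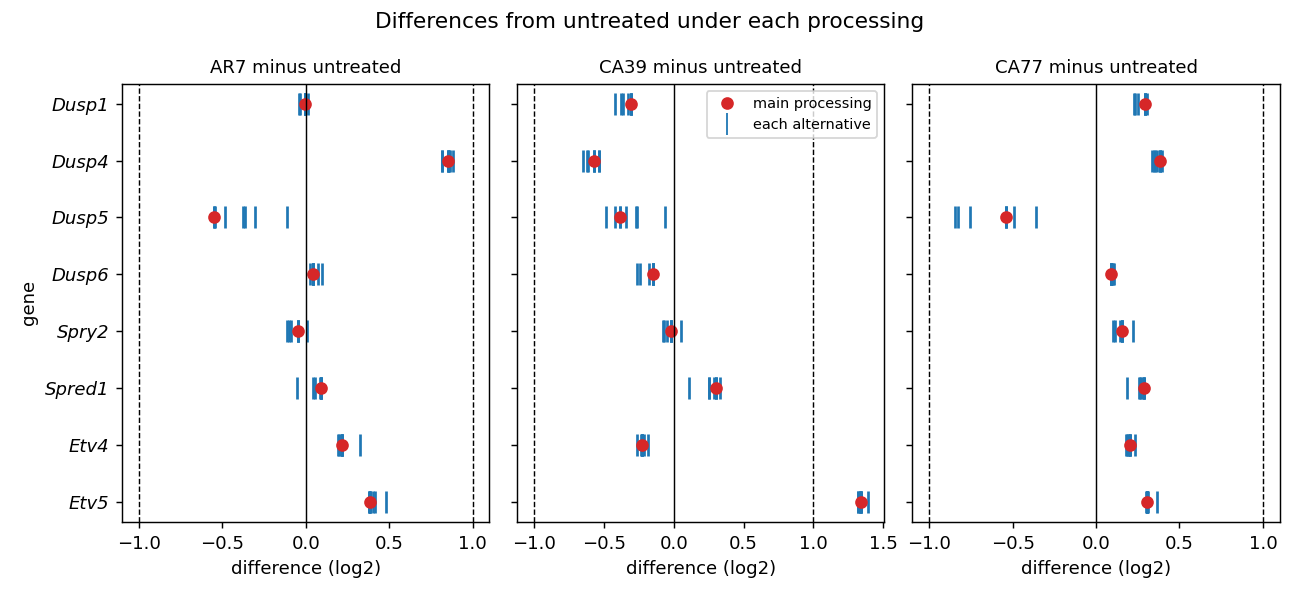
Log2 difference from untreated for 8 members (red points) with the values from 8 other ways of processing the same arrays (blue ticks), 1 panel per compound, with dashed lines at 2-fold. Etv5 with CA39 stays past 2-fold in all of them, and the widest scatter is that of the dim gene Dusp5.

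The rest of the pathway was read from 5 further lists of 65 genes in all. Among 12 growth factor ligands, 9 could be measured and Fgf2, Areg and Hgf were not well above background. Their median differences under AR7, CA39 and CA77 were -0.03, 0.00 and -0.15, and 1 ligand passed 2-fold, with CA39, where 5.29% of all genes did. This was Pdgfc, a platelet-derived growth factor, which read 9.98 untreated, 9.65 with AR7, 12.42 with CA39 and 9.70 with CA77. It stood 2.44 above untreated with CA39 and lay at -0.33 and -0.29 with AR7 and CA77.

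Among 8 growth factor receptors, 2 passed 2-fold with CA39, both higher, where 3.86% of all genes were. Pdgfra, a receptor for that ligand family, read 11.41, 11.37, 12.59 and 11.31 on the untreated, AR7, CA39 and CA77 arrays, a difference of 1.19 with CA39. Pdgfrb, its partner receptor, was detected with CA39 only, at 8.78, which bounds its difference from untreated at 3.09, or at 2.90 with the dim side set to the 1st percentile of detected signal. Over 8 other ways of processing this value ranged from 2.27 to 4.31. Fgfr1, a fibroblast growth factor receptor, lay the other way on its brightest probe, at 0.48 with AR7, -0.79 with CA39 and 0.26 with CA77. A second Fgfr1 probe gave 0.67, -0.79 and 0.54, while the last gave 0.10, -0.02 and 0.25. The receptor medians were -0.11, 0.26 and -0.09. Pdgfc, Pdgfra and Pdgfrb were all read in the first 160 rows, and after the correction for position Pdgfc and Pdgfra stood at 2.49 and 1.21 with CA39. That correction subtracts a local median and cannot remove single outlying spots, so the part of position in these values was not tested.

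The chain from Ras to ERK followed. All 18 of its genes, among them the adaptor Grb2, were detected on every array and 0 passed 2-fold with any compound, near the 3.06%, 5.29% and 3.22% of all genes that did. Their medians were 0.03, 0.00 and -0.02. The exchange factor Sos1, which loads Ras with GTP, was the only one past 1.5-fold, at -0.70 with AR7, where 6.51% of all genes passed. It lay at -0.51 and no longer passed when an offset of 50 was added in the background correction.

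Of 16 other negative regulators, 0 passed 2-fold, again near those shares, with medians of -0.01, -0.11 and 0.00. With CA39, however, 10 of 16 lay beyond 2 tolerances, where 29.9% of all genes did. With AR7 and CA77 the counts were 0 and 0, where 18.0% and 22.8% of genes did. The widest of these CA39 differences were -0.78 for Dusp10, a phosphatase for p38 and JNK, 0.73 for Il17rd, an inhibitor of fibroblast growth factor signalling also called Sef, and 0.66 for Spry3. They went both ways, as did those of the members.

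The 11 other ERK output genes had medians of 0.13, -0.36 and 0.07 under AR7, CA39 and CA77, and 3 were below untreated by more than 2-fold with CA39, where 1.43% of all genes were. Ier3, an immediate early survival gene, read 13.82 untreated, 14.83 with AR7, 12.15 with CA39 and 15.18 with CA77. Against untreated it differed by 1.01 (AR7), -1.67 (CA39) and 1.36 (CA77), so that CA39 gave the lowest and CA77 the highest reading, as for Dusp1. Fosl1, an AP-1 subunit, differed by 0.54, -1.04 and 0.15, and Egr1, an early growth response factor, by -0.46, -1.01 and -0.11. Etv1, the remaining PEA3 group factor, was looked up after its value was seen and differed by 0.21, 0.88 and 0.22, with the same signs as Etv5 for each compound. After a correction for position on the array, Egr1 and Fosl1 lay at -0.93 and -0.91 with CA39 and Ier3 at 0.97 with AR7, just inside 2-fold.

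**Figure D4:**
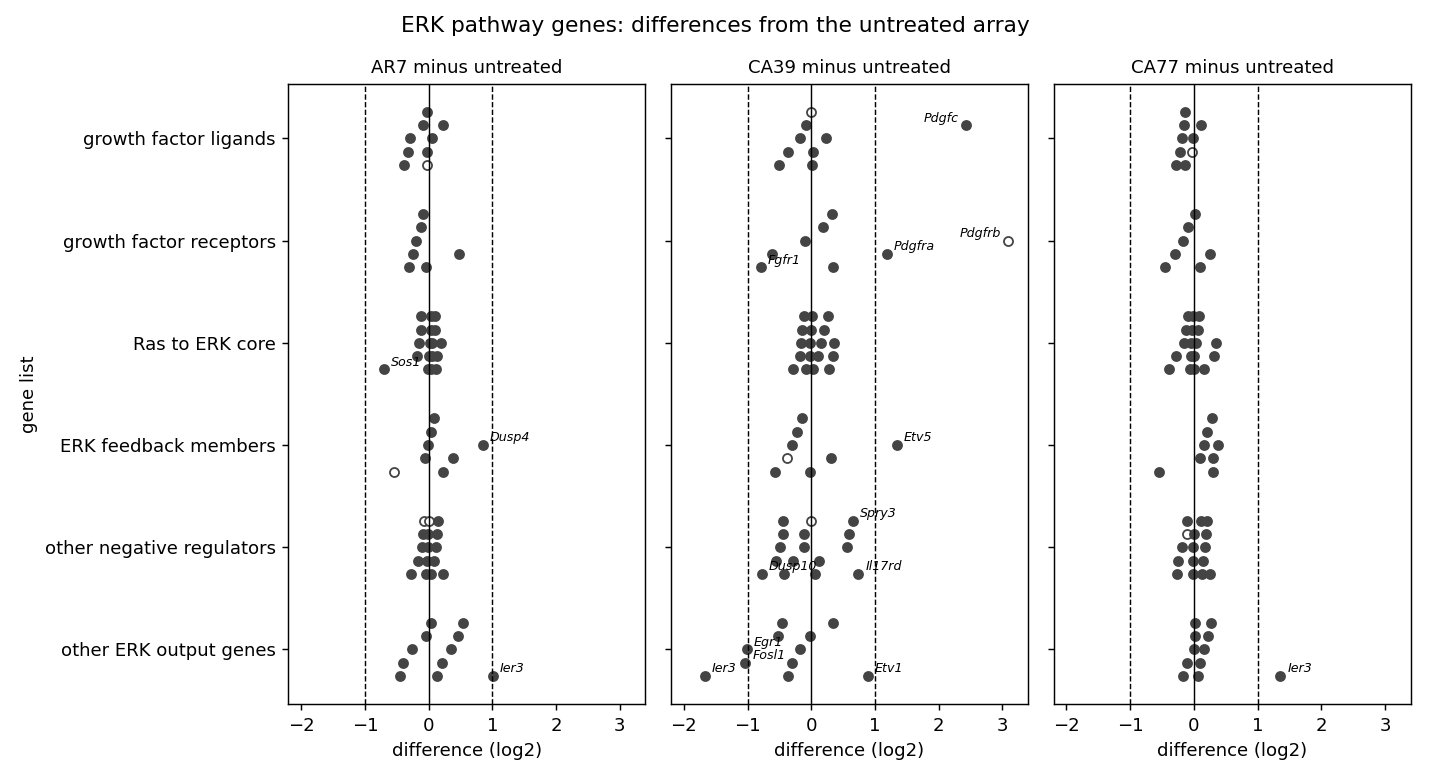
Log2 difference from untreated (horizontal axis) of every measured gene in the members and the 5 pathway lists, 1 point per gene and 1 panel per compound, spread vertically for sight only. Dashed lines mark 2-fold and open circles are bounds; the 18 genes of the Ras to ERK core lie inside the lines, and Pdgfc, Pdgfra, Pdgfrb and Etv5 lie above them with CA39.

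Epithelial markers also differed on the CA39 array. Of immune and endothelial markers, 0 of 3 and 0 of 3 lay beyond 2 tolerances there (medians -0.16 and -0.02), where 29.9% of all genes did. Only 1 of the 3 immune markers was detected with CA39. Adgre1 gave a bound and the Ptprc difference was set to 0, so the immune count rests largely on Cd3e (-0.16). Of 4 epithelial markers, 3 were higher with CA39 than untreated: Krt8 by 2.38, Krt18 by 0.98, and Epcam, detected with CA39 only, by a bound of 2.06, or of 1.65 with the dim side set to the 1st percentile of detected signal. On the linear scale, their summed level with Cdh1 included came to 394 on the untreated array and to 417, 1508 and 314 under AR7, CA39 and CA77. Fibroblast markers differed on the same array, where 3 of 8 were past 2-fold higher than untreated, beside 3.86% of all genes. These were Pdgfrb, as a bound, Fn1 (1.47) and Col1a1 (1.06), while S100a4 alone lay below untreated (-0.22). The summed level of the fibroblast markers was 962882 untreated and 813846, 1241342 and 853845 under AR7, CA39 and CA77. With AR7, the collagen gene Col1a1 lay at -1.04, where the fibroblast median was -0.22. The endothelial marker Cdh5 lay at 0.62, while Pecam1 and Kdr lay the other way at -0.14 and -0.07. With CA77, Krt8 and Krt18 lay at -0.36 and -0.37 and Col1a1 at -0.83. Cdh5 lay at 0.52, while Pecam1 and Kdr lay the other way at -0.20 and -0.21. Beyond 2 tolerances were 2 of 3 immune markers, where 22.8% of all genes were, in opposite directions (Ptprc 0.49 and Cd3e -0.34). The part of all these markers in the Etv5, Dusp4 and Dusp1 values was not tested. In bulk RNA, fewer cells of a type and less RNA per cell cannot be told apart.

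The genes most like Etv5 were sought among 13018 symbols detected on all arrays, by Euclidean distance over the 3 differences from untreated. Nearest was Gm3336, a predicted gene (0.37, 1.33 and 0.29 with AR7, CA39 and CA77, distance 0.03). It was followed by Nid1, a basement membrane protein (distance 0.08), Rnase4, a secreted ribonuclease (0.11), Unc13b, a synaptic vesicle priming factor (0.20), and Rab3il1, a Rab3 and Rab8 exchange factor (0.22). In all, 102 symbols lay within 0.5 of Etv5. The measure spans 3 differences that share 1 untreated array, and the likeness is a description of these arrays.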

How the data were processed

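Total RNA from NIH-3T3 cells was hybridised to 4 Agilent mouse 8x60K arrays, and the authors deposited spot intensity tables from Feature Extraction 10.7.3.1 and a series table of background-subtracted intensity. The submitters' processing notes name oligo and RMA. Array depth is set by the number of spots (62976 per array, 59305 for genes, 0 saturated).

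Median spot intensity was corrected against median local background with limma 3.58.1 (R 4.3.3, normexp, no offset). Control spots were then removed, and arrays were quantile normalized and taken to log2. Spots marked as non-uniform or outliers (142 to 328 per array) were left out, spots of a probe were averaged and the brightest probe stood for a gene. A probe was detected with over 50% of spots well above background. Where 1 array of a pair did not detect it, the dim side was set to the higher of its own value and the lowest detected signal, which makes the difference a bound. If the undetected side then stood higher, the difference was set to 0. For CA39 against untreated this held for Tgfa, Dusp2 and Ptprc, and Tgfa gave the ligand median of 0.00. Without floor or filter, the CA39 median of the other negative regulators was -0.20. The 27512 matched probes took symbols from RefSeq (GRCm38.p6), which the array design (mm9) predates, so no gene coordinates are given for probes. Other probes kept the name of their record, so 20895 of the 36838 gene names are symbols. Shares of all genes are taken over gene names with and without a symbol. The square root of 2 times the median SD over replicated spots gave the tolerance, and code was tested on simulated data. Groups came from the labels. Python 3.11.15 with pandas 2.3.3 made the summaries.

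The members, lists, comparisons and the grid row limit were chosen with earlier results of these data known. Named genes outside the members are those past 2-fold with any compound and up to 3 per list and compound past 1.5-fold, plus the 5 nearest in pattern to the member with the largest difference. Alternatives changed the background correction, scaling, floor, filter, probe choice, position correction and threshold. Of 4 immune markers, 3 had a probe and 1 to 3 were detected per array; all 3 endothelial markers were detected on every array.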

Additional observations from a re-analysis of the deposited data

How the results depend on the processing

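Each condition was a single array, so no replicate could be left out. No paired analysis was possible because each group holds 1 array. The limit for single values and medians was a move of 1 tolerance (0.16). Counts had to be equal or, where both were above 0, differ by at most 1.5-fold. Over 8 alternatives and a 1.5-fold threshold, 51 of 54 member counts, 47 of 48 member medians and 366 of 376 single member values stayed within the limits set for them, and none reversed a called direction. Of the other lists, 127 of 135 counts, 120 of 120 medians and 264 of 272 single gene values did so. With the 1.5-fold threshold, the counts were 1 member for AR7 against untreated, 2 for CA39 against AR7 and 3 for CA39 against CA77, beside 6.51%, 16.9% and 14.7% of all genes. The same threshold gave 1 Ras to ERK core gene with AR7, and with CA39, where 11.8% of genes passed, 4 receptors (2 higher, 2 lower) and 4 other negative regulators (3 higher, 1 lower). When dim probes were neither floored nor filtered out, 1 receptor was lower past 2-fold with AR7 and 1 with CA77 (3.24% and 3.52% of all genes passed in either direction), and the member median for CA39 minus AR7 was 0.10 over 10 genes, where it had been -0.19, because the dim members then entered. ERK output genes past 2-fold with AR7 numbered 0 under 75th percentile scaling (3.30% of all genes) and 0 under the position correction, and with CA39 the latter left 1 and quantile-normalized processed signal 2, of 3 as reported. These are small shifts across the threshold: the lowest Ier3 difference with AR7 was 0.97 (1.01 as reported), and Egr1 and Fosl1 with CA39 stayed at -0.93 and -0.91. The cause of these shifts was not tested. Dusp5 gave 9 of the 10 member values that moved, with a CA77 difference of -0.84 to -0.36, and the other was Spred1 with CA39, at 0.11 over the mean of its probes. Signal over background limits Dusp5, Spry1 and Spry4.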
